A study of Mus musculus with 77 samples.

Results

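AGO2-bound miRNAs from the BNST, the bed nucleus of stria terminalis, were compared between mice that were susceptible to chronic social defeat stress (CSDS) and control mice of the same strain. All 3 susceptible and 5 control miRNA libraries were used, that is 8 of the 77 libraries of the series, together with all 788 miRNA rows of the table. The libraries came from B6 mice (labelled C57BL/6Crl), which were 8 weeks old males, and BNST tissue from 3 animals was pooled for each AGO2 immunoprecipitation. Susceptible mice had been defeated by an aggressor and then avoided an unfamiliar mouse of the aggressor strain in the social interaction test, and the mice with the most extreme scores were chosen. Resilient mice had been defeated but did not avoid the unfamiliar mouse, and control mice had not been in physical contact with an aggressor. Tissue was taken 6 to 8 days after the last defeat. The susceptible pools carry the numbers 1, 2 and 4. The 5 resilient pools of the same experiment share the estimate of the spread and are given for comparison. The labels do not say which animals went into which pool, so the p-values measure the spread between pools.

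AGO2 is the protein of the RNA-induced silencing complex that holds the mature miRNA. A hairpin precursor gives rise to a 5p and a 3p strand, of which AGO2 usually retains mainly one. The seed, bases 2 to 8 from the 5′ end, directs the complex to its target mRNAs, and miRNAs with a common seed form a family. The BNST is a part of the extended amygdala that is known for its role in sustained anxiety.

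The sequences below belong to the miRNAs on which the comparison turns and to their closest relatives. They are RefSeq entries for GRCm38, printed 5′ to 3′ with the seed in capitals, and 686 of the 788 rows had an entry under their name. The first set holds the miR-34b strands and the other strand of miR-34c, encoded within 1 kb of each other on chromosome 9. The 3p strands of both hairpins share a seed.
miR-34b-5p (chr9:51103610-51103632, minus strand): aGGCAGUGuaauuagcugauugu
miR-34b-3p (chr9:51103574-51103595, minus strand): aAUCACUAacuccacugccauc
miR-34c-3p (chr9:51103044-51103065, minus strand): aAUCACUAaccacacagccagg
The second set holds the miR-99/100 family, whose members share a seed, and both strands of miR-125a, which is a neighbour of miR-99b on chromosome 17. In GENCODE M21, miR-99b-5p lies in an intron of Spaca6 and miR-125a-5p overlaps an exon of it. miR-99a-5p lies in an intron of its host transcript Mir99ahg.
miR-99a-5p (chr16:77598940-77598961, plus strand): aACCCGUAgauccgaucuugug
miR-99b-5p (chr17:17830194-17830215, plus strand): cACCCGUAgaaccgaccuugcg
miR-100-5p (chr9:41531437-41531458, plus strand): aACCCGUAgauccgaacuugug
miR-125a-5p (chr17:17830817-17830840, plus strand): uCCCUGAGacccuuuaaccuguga
miR-125a-3p (chr17:17830855-17830876, plus strand): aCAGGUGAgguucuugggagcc
The third set holds both strands of miR-501, from an intron of Clcn5, and the miR-200a and miR-200b strands, from introns of Ttll10.
miR-501-5p (chrX:7241307-7241328, minus strand): aAUCCUUUgucccugggugaaa
miR-501-3p (chrX:7241270-7241291, minus strand): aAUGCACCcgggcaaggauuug
miR-200a-3p (chr4:156054911-156054932, minus strand): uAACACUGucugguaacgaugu
miR-200b-3p (chr4:156055685-156055706, minus strand): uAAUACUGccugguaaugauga

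The deposited values are log2 CPM (reads scaled to a common library size), which could be taken back to whole reads. Control pools held between 3173294 and 4565205 miRNA reads, and susceptible pools between 3751598 and 6344214. The 10 most abundant miRNAs, led by miR-434-3p, let-7e-5p and miR-22-3p, took between 45.9% and 46.9% of the reads in control pools and between 44.9% and 45.4% in susceptible pools. Of the miRNAs known to be enriched in neurons, miR-128-3p-1 (14.66 ± 0.24 log2 CPM in controls, SD, n = 5) and miR-132-3p (14.24 ± 0.16, SD, n = 5) were abundant. The row for miR-124-3p, the most characteristic neuronal miRNA, had 0 reads in 4 of the 5 control pools, and miR-9-5p stood at 0.91 ± 2.33 log2 CPM (SD, n = 5). miR-9 is encoded at 3 loci of the reference table. Names ending in -1 or -2 stand for precursor copies that share a mature sequence, so a read of that sequence does not tell its copy. How such reads were counted is not clear from the sources used. The level of such a row therefore cannot be taken as the level of the miRNA.

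Susceptible pool 4 stood apart from the other susceptible pools. Over the 254 miRNAs with a mean of at least 6 log2 CPM, its root mean square difference from them averaged 0.505 (log2), against 0.436 from the control pools. For susceptible pools 1 and 2 the averages within their group were 0.370 and 0.367. Values without pool 4 are therefore given for the miRNAs described here whose call changed when it was left out. Pool 4 was set apart by the same miRNA values that were then tested, so p-values without it are not independent support.

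A miRNA was called where its limma p was under 0.05 and it differed at least 1.2-fold. By this rule 37 of the 788 miRNAs (4.70%) were called between susceptible and control pools, 12 higher (1.52%) and 25 lower (3.17%). With quantile normalization in place of the deposited scaling, 16 were called higher and 19 lower. An unadjusted p under 0.05 was found for 39 miRNAs (4.95%), about the share that the threshold itself admits. After Benjamini-Hochberg adjustment by limma, 0 miRNAs remained, and the smallest adjusted p was 0.602. Each miRNA below is therefore described by its values, and none of them passed the correction when all pools were used. The median log2 difference over all miRNAs was -0.01, and 403 of the 788 (51.1%) were below 0. The pools of the 2 groups did not overlap for 24 miRNAs (3.05%), of which 18 were lower and 6 higher in the susceptible pools, and 11 of the called miRNAs were among them. For 21 of the 24 (2.66% of all) the difference was at least 1.2-fold. A random split of 3 against 5 pools leaves no overlap with a probability of 0.0357, so a lack of overlap alone does not set a miRNA apart.

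**Figure D1:**
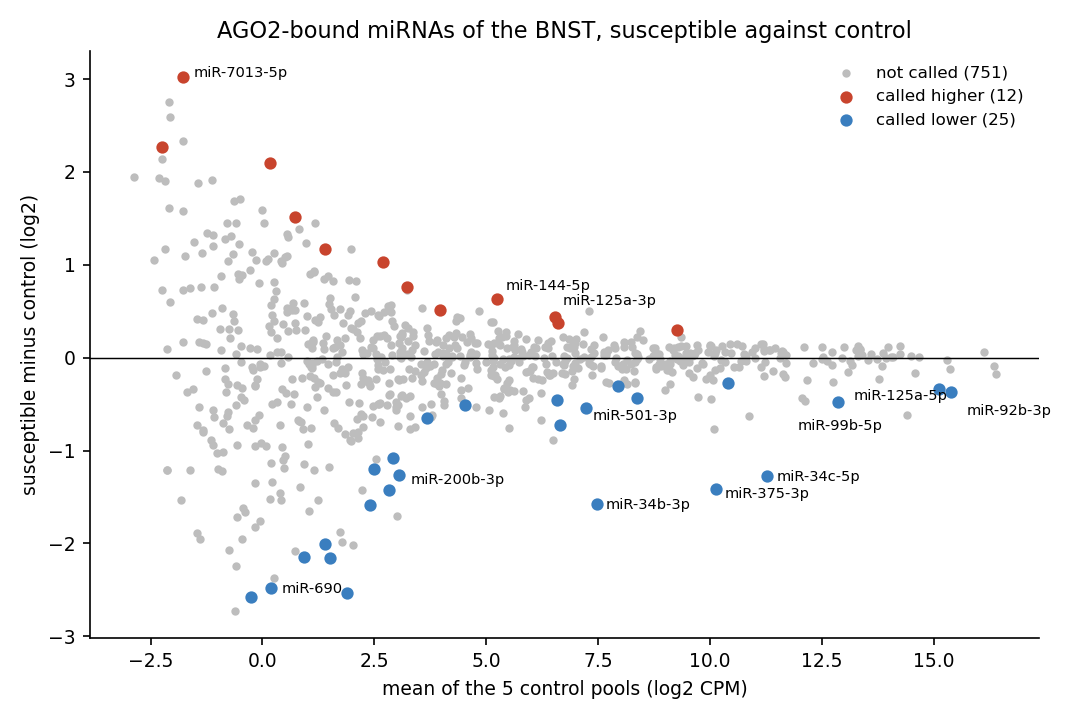
Difference between susceptible and control pools (log2, y axis) against the mean of the 5 control pools (log2 CPM, x axis) for each of the 788 miRNAs. The 12 called higher are red and the 25 called lower are blue. At control means above 10 log2 CPM the called miRNAs were all lower, whereas differences above 2 occurred at the lowest levels.

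The size of the called differences followed the level of the miRNA. Among 94 miRNAs with a mean of at least 10 log2 CPM, 5 were called (5.32%), all of them lower, with a median absolute difference of 0.37 (log2). Among 288 miRNAs below 2 log2 CPM, 12 were called (4.17%), 4 higher and 8 lower, with a median absolute difference of 2.15 (log2). The median SD of the control pools was 0.13 (log2) in the first class and 1.48 in the second. Of the 37 called miRNAs, 9 had 0 reads in at least 1 of the 8 pools.

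The miRNAs with the smallest p were miR-34b-3p and miR-375-3p, and miR-34c-5p was called with them. miR-34b and miR-34c belong to the miR-34 family and its miR-449 relatives, which are known to act in the formation of motile cilia, and miR-375 is known from endocrine and secretory cells. miR-34b-3p stood at 8.24, 7.62, 7.12, 7.86 and 6.53 log2 CPM in control pools 1 to 5. In susceptible pools 1, 2 and 4 it stood at 5.32, 5.49 and 6.89 log2 CPM. The first pair of susceptible pools lay below every control pool, and pool 4 lay between control pools 5 and 3. The log2 difference was -1.58 ± 0.44 (SE, limma adjusted p = 0.602), which is 0.335 of the control level. An exact permutation test of the pools, whose smallest two-sided p is 0.0357 with 3 pools against 5, gave p = 0.0714.

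miR-375-3p stood at 10.98, 10.55, 9.65, 10.27 and 9.18 log2 CPM in the control pools and at 8.30, 8.19 and 9.64 log2 CPM in the susceptible pools. The same pools were low and high as for miR-34b-3p. The difference was -1.42 ± 0.40 (log2, SE, limma adjusted p = 0.602). miR-34c-5p, the most abundant strand of the miR-34 group that was called, stood at 12.07, 11.45, 11.15, 11.83 and 9.91 log2 CPM in the control pools and at 9.48, 9.51 and 11.02 log2 CPM in the susceptible pools. Here control pool 5 was low as well, and the log2 difference was -1.28 ± 0.48 (SE, limma adjusted p = 0.884). Without susceptible pool 1 or pool 2, miR-34c-5p was not called (-1.01 and -1.03, log2). Without susceptible pool 4 the log2 differences were -2.07 for miR-34b-3p, -1.88 for miR-375-3p and -1.79 for miR-34c-5p, with limma adjusted p-values of 0.0298, 0.0298 and 0.190.

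Of the other rows of this family, miR-34b-5p differed by -0.88 ± 0.53 (log2, SE) and was not called, but it was called without susceptible pool 4 (-1.48, log2) or control pool 5 (-1.23). miR-34a-5p, which lies at another locus and is expressed widely in brain, differed by 0.50 ± 0.32 (log2, SE) and was not called either. In total 2 of the 7 rows of the family were called, both lower, and the median log2 difference was -0.12 against -0.01 over all miRNAs. The list of miRNAs known from choroid plexus and ciliated epithelium shares these strands with it. In that list 2 of 9 rows were called, both lower (3.17% of all miRNAs were called lower), 7 of the 9 were below 0 (51.1% of all) and the median was -0.62 (log2). Its most abundant member, miR-204-5p, which is encoded in an intron of Trpm3, stood at 14.98, 13.79, 14.78, 14.94 and 13.53 log2 CPM in the control pools and at 13.38, 13.63 and 14.34 log2 CPM in the susceptible pools. These ranges overlapped, and the difference of -0.62 ± 0.33 (log2, SE) was not called. It was called without susceptible pool 4 (-0.90, log2), control pool 2 (-0.77) or control pool 5 (-0.84).

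The levels of these miRNAs moved with marker mRNAs of ependymal cells, the ciliated lining of the ventricles, in the AGO2 mRNA library of the same group and number. These libraries were taken to come from the same pool, which the labels do not state. Of 10 ependymal markers such as Foxj1 and Dnah6, 9 were in the mRNA table, and 1 of them (Tmem212) was at 0 reads in some library. Their summed level ranged from 5.38 to 6.79 (log2 CPM) in the 5 control libraries, from 4.86 to 5.44 in the susceptible libraries 1, 2 and 4 and from 4.63 to 6.27 in the resilient libraries. For single markers, the mean in these susceptible libraries minus that in controls ranged from -1.61 to -0.18 (log2). The share of all mRNAs with a lower mean was not computed. These values therefore do not set the ependymal markers apart from other mRNAs. An exact permutation test of the ependymal sum, susceptible against control, gave p = 0.0714. Over all 13 pools, the ependymal sum correlated with miR-34b-3p at Pearson r = 0.949 and Spearman rho = 0.929 (permutation p-values adjusted over 10 relations 9.9999e-05 and 4.99995e-05). For miR-375-3p r was 0.954 and rho 0.962, with the same adjusted permutation p-values. For miR-34c-5p r was 0.897 and rho 0.890 (adjusted permutation p = 9.9999e-05 and 0.00033333). Without the 2 pools farthest from the median of the sum, r was 0.935, 0.918 and 0.890 in the same order. After subtracting the group means, r was 0.916, 0.925 and 0.881, so that the relation was also present within groups.

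With the ependymal sum as a covariate, the log2 difference between susceptible and control pools was -0.34 ± 0.27 (SE) for miR-34b-3p, -0.26 ± 0.22 for miR-375-3p and 0.06 ± 0.30 for miR-34c-5p, and none of the 3 was called. miR-204-5p was at 0.03 ± 0.33 (log2, SE) with this covariate. Of 30 called miRNAs followed through every setting, 14 kept their call with it, 15 became weaker and lost it, and 1 turned direction. Losing the call was therefore not particular to miR-34b-3p, miR-375-3p and miR-34c-5p. Markers of the choroid plexus, the tissue that secretes cerebrospinal fluid, were all in the mRNA table (8 of 8, with Kcnj13, Folr1, Sostdc1 and Aqp1 at 0 reads in some library). Their summed level ranged from 5.14 to 7.66 (log2 CPM) in control libraries and from 4.64 to 6.04 in the susceptible libraries 1, 2 and 4. In resilient libraries it ranged from 4.78 to 7.18. An exact permutation test of this sum, susceptible against control, gave p = 0.143. The choroid plexus sum correlated with miR-204-5p over the 13 pools at r = 0.926 and rho = 0.797 (adjusted permutation p = 0.000224998 and 0.00232498), and r was 0.882 without the 2 farthest pools. Each marker sum was also related to the other miRNAs. The choroid plexus sum correlated with miR-34b-3p, miR-34c-5p and miR-375-3p at r = 0.780, 0.852 and 0.781 (rho = 0.775, 0.808 and 0.830, adjusted permutation p of r = 0.00338886, 0.000883325 and 0.00294997), and the ependymal sum with miR-204-5p at r = 0.691 (rho = 0.681, adjusted permutation p = 0.0105499 and 0.0134899). miR-34b-5p correlated with the ependymal sum at r = 0.857 and with the choroid plexus sum at r = 0.839. Its log2 difference of -0.88 became 0.55 ± 0.35 (SE) with the ependymal covariate and 0.17 ± 0.38 with the choroid plexus covariate. It was not called in either fit. With the choroid plexus sum as a covariate, miR-204-5p differed by 0.13 ± 0.18 (log2, SE) and miR-34c-5p by -0.31 ± 0.34 (not called), whereas miR-34b-3p (-0.85 ± 0.39) and miR-375-3p (-0.74 ± 0.35) were still called. With the choroid plexus covariate, 17 of the 30 called miRNAs followed kept their call and 13 lost it. The marker mRNAs were those bound to AGO2. In pooled tissue fewer cells of a type, less RNA per cell and less binding to AGO2 cannot be told apart, and none was tested.

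**Figure D2:**
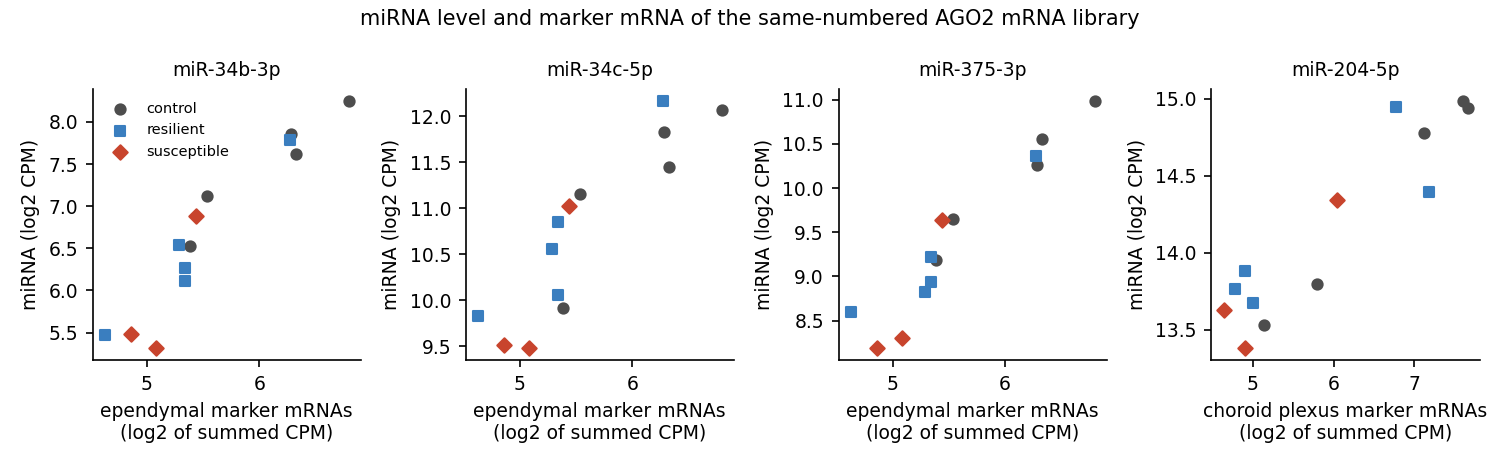
Level of 4 miRNAs (log2 CPM, y axis) against the summed level of ependymal or choroid plexus marker mRNAs (log2 CPM, x axis) in the same-numbered AGO2 mRNA library. Each point is a pool, with control pools grey, resilient pools blue and susceptible pools red. Pools of the 3 groups lie along the same course, and susceptible pools 1 and 2 sit near its lower end.

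The 5p strands of the miR-99/100 family stood below all control pools in susceptible pools 1 and 2 but not in pool 4. Members of this family are encoded next to a let-7 and a miR-125 hairpin at 3 places in the genome. miR-99b-5p stood at 12.98, 12.73, 12.92, 12.92 and 12.76 log2 CPM in the control pools and at 12.05, 12.26 and 12.85 log2 CPM in the susceptible pools. Pool 4 lay inside the narrow control range and the other pair below it. The log2 difference was -0.48 ± 0.14 (SE, limma adjusted p = 0.602), and without susceptible pool 1 it was -0.31 and not called. miR-99a-5p stood at 8.49, 8.08, 8.26, 8.59 and 8.38 log2 CPM in the control pools and at 7.63, 7.57 and 8.59 log2 CPM in the susceptible pools, a difference of -0.43 ± 0.19 (log2, SE). This call was lost without susceptible pool 1 (-0.28, log2) or pool 2 (-0.25) and without control pool 1, 4 or 5. miR-100-5p stood at 9.67, 9.43, 9.79, 9.95 and 9.77 log2 CPM in the control pools and at 8.85, 8.95 and 10.10 log2 CPM in the susceptible pools, and its difference of -0.42 ± 0.23 (log2, SE) was not called. All 3 share the seed printed above and had the same pattern of pools, with pool 4 at or above the median of the controls for miR-99a-5p and miR-100-5p.

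Without susceptible pool 4, 6 miRNAs passed an adjusted p under 0.05 by limma, and the 3 members just described were among them. That fit rests on susceptible pools 1 and 2, after the pool that differed from them was removed. Its p-values are therefore not support for a difference. The log2 differences were then -0.71 for miR-99b-5p (adjusted p = 0.0136), -0.76 for miR-99a-5p (adjusted p = 0.0265) and -0.82 for miR-100-5p (adjusted p = 0.0298). The others were miR-34b-3p and miR-375-3p, given above, and miR-409-5p, of the large imprinted Dlk1-Dio3 cluster on chromosome 12. miR-409-5p stood at 4.87, 5.80 and 7.12 log2 CPM in the susceptible pools and between 6.36 and 7.08 log2 CPM in the control pools. Its log2 difference was -0.72 ± 0.34 (SE) with all pools and -1.32 (adjusted p = 0.0265) without pool 4, and -0.19 without susceptible pool 1, where it was not called. Its call was also lost without susceptible pool 2, resilient pool 2 or 5 or control pool 1, 3, 4 or 5. Only 15 of the 37 called miRNAs were also called without pool 4.

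The let-7 neighbours did not follow. let-7e-5p, which lies 451 bases from miR-125a-5p and is the second most abundant miRNA of the controls, differed by -0.09 ± 0.14 (log2, SE). In the let-7 family 0 of 13 rows were called, 10 were below 0 and the median difference was -0.12 (log2). Among all miRNAs 1.52% were called higher and 3.17% lower, 51.1% were below 0 and the median was -0.01 (log2). Of the 6 rows of the miR-99/100 family, 2 were called, both lower, with a median of -0.24 (log2), and of the 6 rows of the miR-125 family, 1 was called higher and 1 lower.

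**Figure D3:**
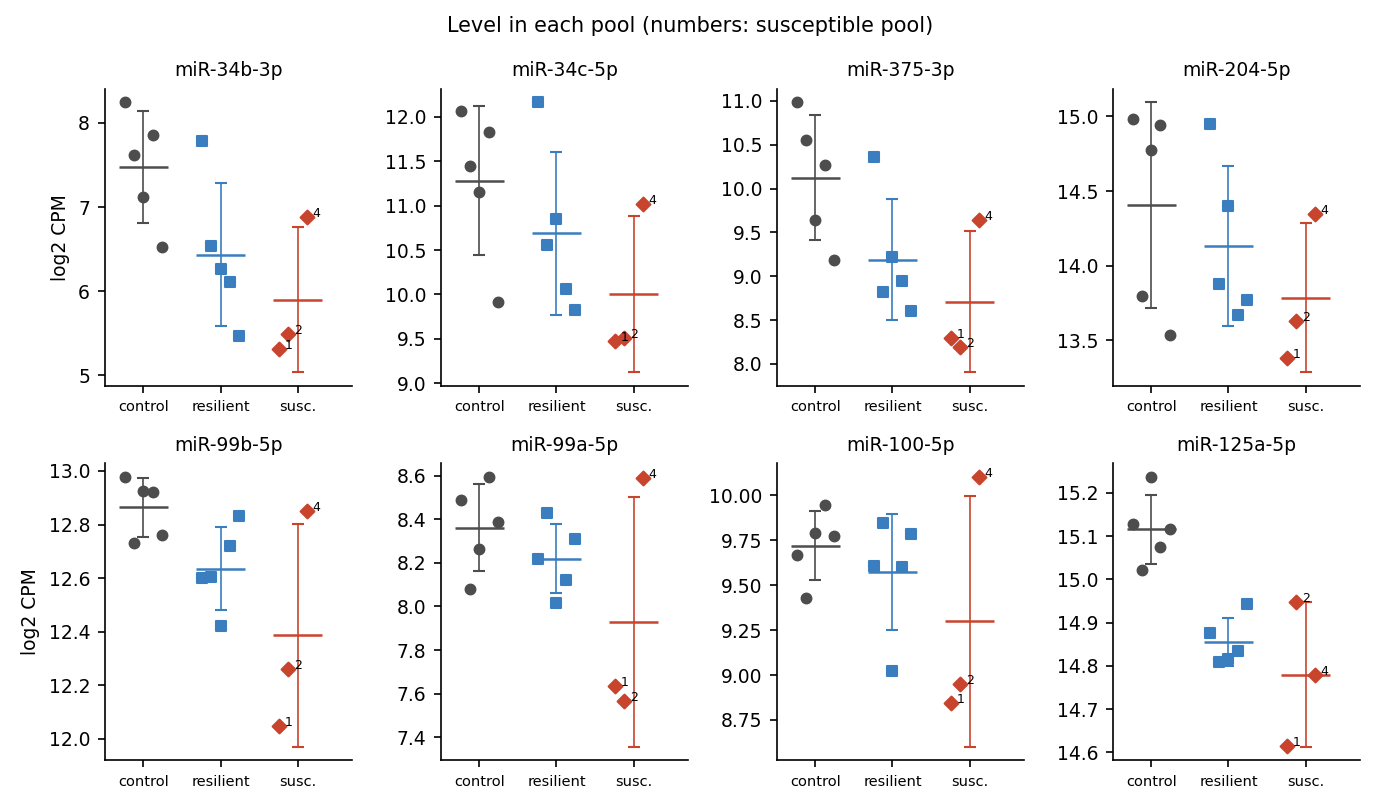
Level in each pool (log2 CPM, y axis) of 8 miRNAs in control, resilient and susceptible pools. Lines are group means and bars are SD, and the small numbers name the susceptible pool. Susceptible pool 4 lies within the control range for miR-34b-3p, miR-34c-5p, miR-375-3p, miR-204-5p, miR-99b-5p and miR-99a-5p and above it for miR-100-5p, whereas for miR-125a-5p all 3 susceptible pools lie below the controls.

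miR-125a-5p and miR-92b-3p were the called miRNAs among the 10 most abundant of the control pools (2 of 10, against 4.70% of all miRNAs). miR-125a-5p, of a family known in neuronal differentiation and immune cells, stood at 15.13, 15.02, 15.24, 15.07 and 15.12 log2 CPM in the control pools and at 14.61, 14.95 and 14.78 log2 CPM in the susceptible pools. The groups did not overlap, and the log2 difference was -0.34 ± 0.10 (SE, limma adjusted p = 0.602), or 0.792 of the control level. The exact permutation test gave p = 0.0357, the smallest it allows. Any miRNA whose groups do not overlap has this value, so the test adds nothing to the lack of overlap. It was no longer called without susceptible pool 1 (-0.25, log2) or with quantile normalization (-0.13, log2). miR-92b-3p stood at 15.67, 15.44, 15.21, 15.33 and 15.27 log2 CPM in the control pools and at 15.08, 15.03 and 14.94 log2 CPM in the susceptible pools. Again the groups did not overlap, with a log2 difference of -0.37 ± 0.15 (SE, limma adjusted p = 0.884). It was not called without susceptible pool 4 (-0.33, log2), without control pool 1 (-0.30) or with quantile normalization (-0.17). With the ependymal or the choroid plexus sum as a covariate it differed by -0.17 and -0.19 (log2) and was not called either. The list of miR-17/92 and related miRNAs, to which miR-92b-3p belongs, held 17 rows, of which this 1 was called, and its median difference was 0.01 (log2).

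Other miRNAs that were called lower also separated the groups. Among them were miR-346-5p and miR-671-3p at moderate levels and miR-1306-3p at a low level. miR-671-3p, from an exon of Chpf2, varied little among the control pools, from 7.93 to 7.95 log2 CPM, and stood at 7.79, 7.64 and 7.46 log2 CPM in the susceptible pools. miR-346-5p, from an intron of Grid1, ranged from 6.44 to 6.72 log2 CPM in the control pools and stood at 6.22, 6.43 and 5.73 log2 CPM in the susceptible pools. miR-1306-3p is encoded in an exon of Dgcr8, the partner of Drosha in the cleavage of primary miRNA transcripts. It ranged from 2.81 to 2.96 log2 CPM in the control pools and stood at 0.83, 2.60 and 2.05 log2 CPM in the susceptible pools. Limma adjusted p-values were 0.884 for all 3. miR-346-5p was not called without susceptible pool 4 (-0.26, log2), nor miR-1306-3p without susceptible pool 1 (-0.58, log2), nor miR-671-3p without susceptible pool 2 or pool 4 (-0.31 and -0.22, log2) or with quantile normalization (-0.24).

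The called miRNAs that were higher in susceptible pools were mostly of low abundance. miR-144-5p, which is transcribed with miR-451a in erythroid cells, stood at 4.92, 5.42, 5.84, 5.16 and 4.87 log2 CPM in the control pools and at 5.70, 5.81 and 6.11 log2 CPM in the susceptible pools. One control pool lay within the susceptible range, and the log2 difference was 0.63 ± 0.23 (SE, limma adjusted p = 0.884). Without susceptible pool 4 it was 0.51 (log2) and not called. Its neighbour miR-451a, the most abundant miRNA of red blood cells, differed by 0.12 ± 0.20 (log2, SE). Of the 5 rows of the erythroid list, 1 was called higher (1.52% of all miRNAs were) and the median difference was 0.12 (log2). miR-15b-5p, from an intron of Smc4, stood at 4.08, 4.42 and 4.95 log2 CPM in the susceptible pools and between 3.74 and 4.14 log2 CPM in the control pools. Its log2 difference was 0.51 ± 0.23 (SE) with all pools and 0.28 without pool 4, where it was not called, and the call was also lost without control pool 2 or 5, resilient pool 1 or 4 or susceptible pool 2. miR-382-3p and miR-380-5p of the Dlk1-Dio3 cluster differed by 0.43 ± 0.19 and 0.76 ± 0.33 (log2, SE). The call of miR-382-3p was lost without control pool 1, 2 or 4 or susceptible pool 4 (0.20, log2), and that of miR-380-5p without control pool 1, 2 or 3 or susceptible pool 1 or 2. Among all 93 rows of that cluster 3 were called higher and 1 lower (1.52% and 3.17% of all miRNAs), and the median was 0.03 (log2).

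In several of these rows the difference rested on few reads. miR-7013-5p, from an intron of Pi4kb, had 2, 0, 0, 0 and 4 reads in the control pools and 18, 7 and 12 reads in the susceptible pools. The groups did not overlap, also on the log2 CPM scale, and the fitted log2 difference was 3.02 ± 0.91 (SE, limma adjusted p = 0.602), a value that depends on the 0.5 reads added before the logarithm. The resilient pools had between 8 and 22 reads. The study kept miRNAs with at least 1 CPM in at least 3 libraries. This row had 0 reads in 3 control pools, so it passed only with susceptible or resilient pools. The filter thus favoured a difference in this direction. miR-690, from an intron of Fgf12, had 6, 1, 4, 4 and 6 reads in the control pools and 4, 0 and 0 reads in the susceptible pools. miR-7049-5p had 0, 2, 7, 5 and 5 reads in the control pools and 0, 1 and 0 reads in the susceptible pools. Without susceptible pool 4 the log2 differences of miR-690 and miR-7049-5p were -1.79 and -2.14, and neither was called. The call of miR-7049-5p was also lost without control pool 3 or 5 or susceptible pool 1.

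The miR-200 family, known as a keeper of the epithelial state and also expressed in olfactory and pituitary cells, was near this range. miR-200b-3p had 25, 23, 27, 47 and 33 reads in the control pools and 32, 12 and 13 reads in the susceptible pools. On the log2 CPM scale the difference was -1.26 ± 0.49 (SE, limma adjusted p = 0.884), and the highest susceptible pool and the lowest control pool both stood at 2.60 log2 CPM. Without susceptible pool 4 miR-200b-3p and miR-200a-3p were not called (-0.90 and -0.91, log2). miR-200a-3p had between 3 and 13 reads in the control pools and 8, 2 and 0 reads in the susceptible pools. Of the 6 rows of the miR-200 family and miR-183 cluster, all 6 were below 0 and 2 were called lower, with a median of -0.46 (log2). Over all miRNAs 51.1% were below 0, 3.17% were called lower and the median was -0.01 (log2).

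**Figure D4:**
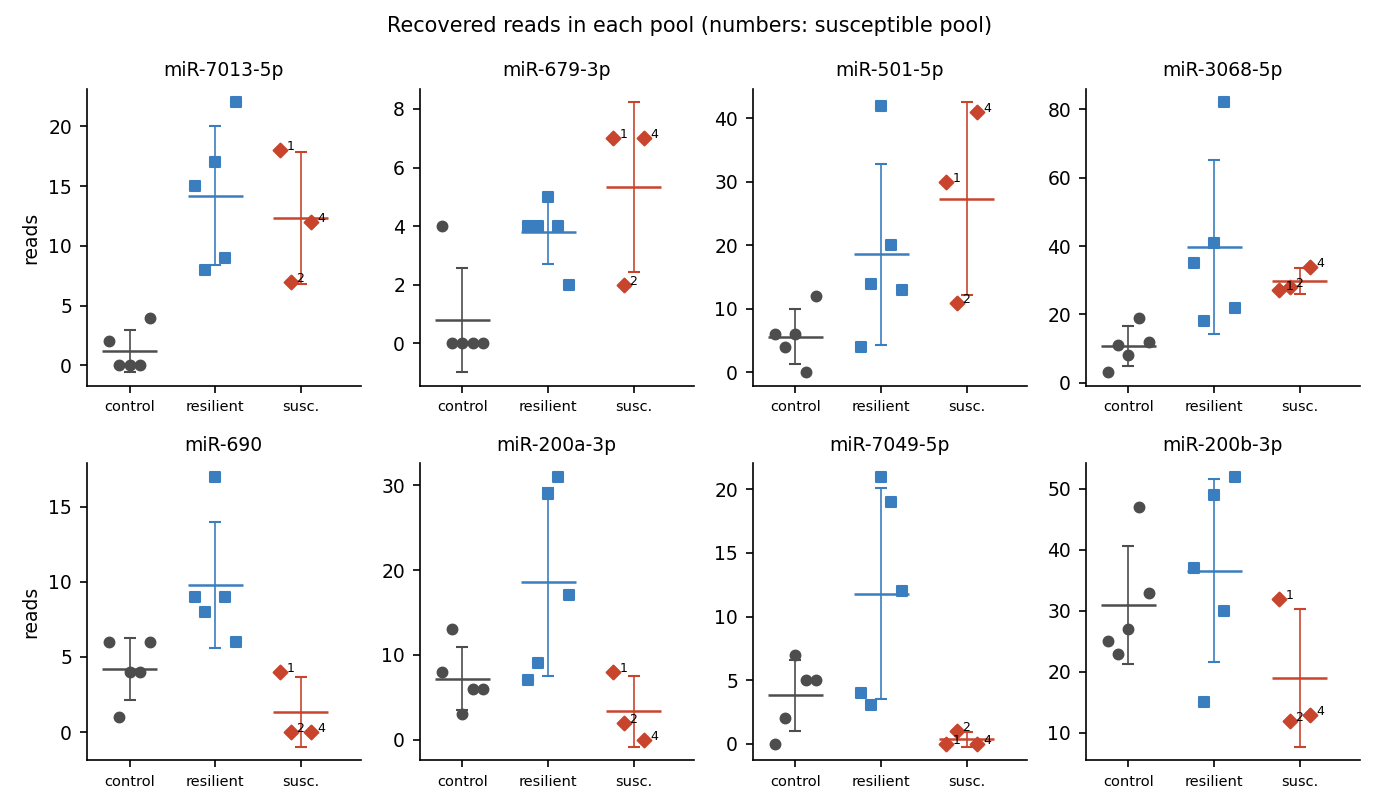
Reads recovered from the deposited values (y axis, not corrected for depth) in control, resilient and susceptible pools, for 8 called miRNAs of low abundance. Lines are group means, bars are SD and numbers name the susceptible pool. The upper row holds miRNAs called higher and the lower row miRNAs called lower, and most of them had under 50 reads in every pool.

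The 2 strands of a hairpin differed in direction for miR-125a and miR-501. The passenger strand miR-125a-3p stood at 6.89, 6.61, 6.75, 6.38 and 6.39 log2 CPM in the control pools and at 6.78, 6.95 and 7.19 log2 CPM in the susceptible pools. Its difference of 0.37 ± 0.17 (log2, SE) was called higher, whereas miR-125a-5p was called lower. The call of the 3p strand was lost without control pool 2, 4 or 5 or susceptible pool 2 or 4 (0.26, log2, without pool 4). The 5p strand exceeded the 3p strand by 8.24, 8.41, 8.49, 8.70 and 8.73 (log2) in the control pools and by 7.84, 7.99 and 7.58 (log2) in the susceptible pools. These ranges did not overlap. The change in the strand difference was -0.71 ± 0.18 (log2, SE, limma adjusted p = 0.294), the smallest p of the 147 hairpins with both strands at a mean of at least 2 log2 CPM. For miR-501, the 3p strand stood at 7.21, 6.94, 7.39, 7.09 and 7.49 log2 CPM in the control pools and at 6.22, 6.72 and 7.10 log2 CPM in the susceptible pools, a difference of -0.54 ± 0.18 (log2, SE) that was not called without susceptible pool 1 (-0.31, log2). The 5p strand had 6, 4, 6, 0 and 12 reads in the control pools and 30, 11 and 41 reads in the susceptible pools. It was called higher, but not without susceptible pool 1 or 4 (1.97 and 1.88, log2) or control pool 4 (1.27). This strand was too low for the comparison of strands.

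Of the 147 hairpins 8 (5.44%) were called for a change in the strand difference, 6 toward 5p and 2 toward 3p, and 0 passed adjustment by limma, where 8 had an unadjusted p under 0.05. Besides miR-125a the change toward 3p was called for miR-99a, whose 5p strand exceeded the 3p strand by 2.52 to 2.99 (log2) in the control pools and by 2.13, 1.94 and 2.43 (log2) in the susceptible pools. Its change was -0.57 ± 0.17 (log2, SE, limma adjusted p = 0.390). The 3p strand of miR-99a differed by 0.14 ± 0.20 (log2, SE), and that of miR-99b by -0.07 ± 0.14 (log2, SE). For both miR-125a and miR-99a the change was called with each pool left out in turn. Other normalizations were not applied to the strand differences. For miR-125a the strand difference ranged from 7.83 to 8.35 (log2) in the resilient pools, overlapping both other groups.

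**Figure D5:**
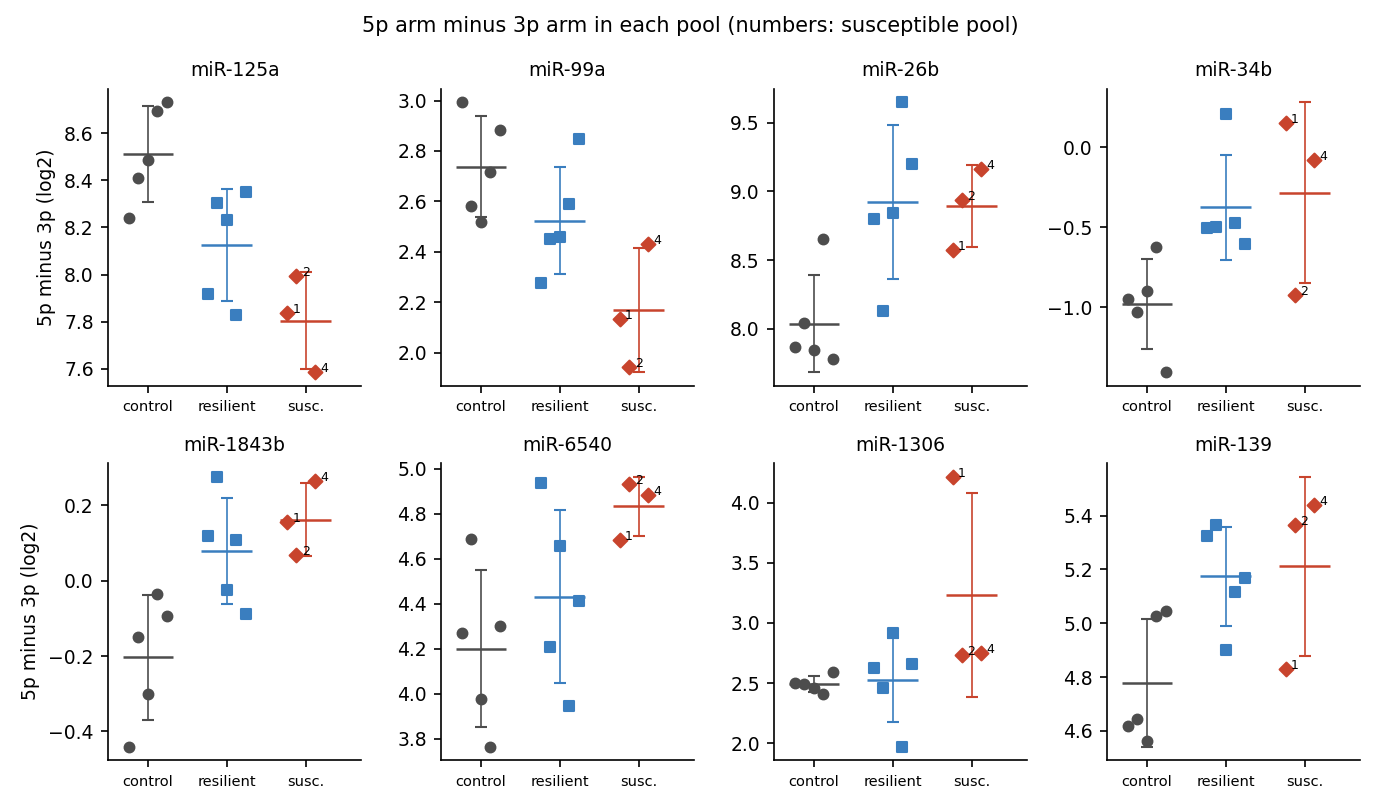
Level of the 5p strand minus that of the 3p strand (log2, y axis) in each pool for the 8 hairpins called for a change between susceptible and control pools. Lines are group means, bars are SD and numbers name the susceptible pool. For miR-125a and miR-99a the susceptible pools lie below all control pools, and for miR-1843b and miR-1306 they lie above them.

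Markers of other cell types were compared in the same way. Over all miRNAs 1.52% were called higher and 3.17% lower, and the median was -0.01 (log2). In the neuron-enriched list 0 of 15 rows were called, with a median difference of 0.07 (log2). In the oligodendrocyte-enriched list (5 rows), the endothelial and mural list (6 rows) and the leukocyte and microglia list (7 rows) 0 were called, with medians of 0.02, 0.03 and 0.22 (log2). Of miRNAs encoded in the Hox clusters, which are typical of caudal neural tissue, 2 rows were in the table and 0 were called. Of the muscle miRNAs only miR-206-3p was in the table, and it differed by -0.03 (log2). In a list of miRNAs linked to stress and anxiety in the literature 2 of 19 rows were called, miR-34c-5p and miR-375-3p, both lower, and the median was 0.07 (log2). The list includes a miRNA that was studied in these samples, so it is not independent evidence of direction. In the miR-29, miR-148 with miR-152 and miR-7 families and the Sfmbt2 cluster 0 rows were called. The miR-30 list holds 5p rows only, of which 0 of 5 were called, while the other strand miR-30a-3p was called lower (-0.28 ± 0.13, log2, SE), a call that was lost without control pool 1, 2, 4 or 5, resilient pool 1 or 4 or susceptible pool 1 or 2. In the miR-15/16 and miR-181 families 1 of 7 rows each was called, in both cases higher.

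The resilient pools share the controls with the susceptible pools, so only the direct comparison of susceptible with resilient pools is a test between them. In it 31 of 788 miRNAs (3.93%) were called. Among them were 3 of the 37 miRNAs above, which were picked on the same susceptible pools and are not independent calls. These were miR-690 (log2 difference -2.95 ± 0.89, SE), miR-200a-3p (-2.62 ± 0.84) and miR-7049-5p (-3.46 ± 1.05), with limma adjusted p-values of 0.505, 0.520 and 0.505. The differences without susceptible pool 4 were -2.26, -1.38 and -3.03 (log2), and miR-200a-3p was not called. The resilient pools had between 6 and 17, between 7 and 31 and between 3 and 21 reads for them. For miR-34b-3p the susceptible minus resilient difference was -0.54 ± 0.44 (log2, SE), for miR-375-3p -0.48 ± 0.40, for miR-99b-5p -0.25 ± 0.14 and for miR-125a-5p -0.08 ± 0.10, and none of these was called. miR-125a-5p ranged from 14.81 to 14.94 log2 CPM in the resilient pools, and miR-34b-3p from 5.47 to 7.78 log2 CPM.

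Blood miRNAs were measured in other libraries of B6 mice, prepared with another kit, with 5 mice in each group. Of the 37 miRNAs called in the BNST, 13 were in the blood table of 299 miRNAs, where 13 (4.35%) were called between susceptible and control mice. Of the 13 shared miRNAs only 5 differed in the same direction in both tissues, and only miR-181b-5p was called in both. In blood it stood at 1.07 ± 0.44 log2 CPM in controls and 1.80 ± 0.47 log2 CPM in susceptible mice (SD), a log2 difference of 0.73 ± 0.28 (SE, limma adjusted p = 0.897). In the BNST the row miR-181b-5p-1 of the same mature sequence differed by 0.44 (log2) and was not called. Only the row miR-181b-5p-2 was called there, with a difference of 0.30 ± 0.14 (log2, SE). This call was lost without susceptible pool 2 (0.18, log2), without control pool 1 (0.19), 2 or 5 or resilient pool 4, and with the ependymal or choroid plexus sum as a covariate (0.18 and 0.28). miR-34c-5p stood at 4.51 ± 1.18 log2 CPM in the blood of controls and 3.55 ± 0.46 log2 CPM in that of susceptible mice (SD), a difference of -0.95 ± 0.60 (log2, SE) that was not called. miR-99b-5p and miR-125a-5p differed by 0.36 ± 0.30 and -0.02 ± 0.26 (log2, SE) in blood.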

How the data were processed

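AGO2-bound small RNA of B6 BNST pools had been sequenced from TruSeq Small RNA libraries. The authors counted reads on miRBase miRNAs with miRDeep2 and Bowtie 1.1.1, removed miRNAs with low counts and deposited log2 CPM values made with voom. The deposited log2 values were taken back to reads, all of which were whole within 1.94e-08 reads. The adjustment for surrogate variables that the authors applied later is not part of these values. AGO2 mRNA and blood miRNA values, also deposited as log2 CPM, were used for marker sums and for the comparison with blood. The blood mRNA table was not used here, and 0 columns of the tables used lacked a sample.

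The deposited values were fitted in R 4.3.3 by limma 3.58.1, as 1 linear model of the 13 pools with a mean-variance trend and without covariates, and p-values were adjusted over the 788 miRNAs by the Benjamini-Hochberg method. Calls required a p under 0.05 together with an at least 1.2-fold difference. All tests were two-sided. Single miRNAs were also tested over all 56 splits of 3 against 5 pools with an exact permutation test (scipy 1.17.1, Python 3.11.15). Relations to marker mRNAs used 100000 permutations. The marker covariates and the comparison of strands were added after the data were seen. Intervals of counting error are not given, since PCR reads are not independent molecules.

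The miRNAs named are, of those called, the 12 higher and the 18 lower with the smallest p, the 10 most abundant, the called or most abundant members of each list, other strands and seed relatives of the first set, those without overlap between groups that had the largest fold, and 6 miRNAs named by the study. Only a part of them is described. The members and lists were chosen with earlier results of these data known. The fit was tested on simulated data. Sequences and positions are those of RefSeq for GRCm38, and host genes are those of GENCODE M21.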

Additional observations from a re-analysis of the deposited data

Results flagged for a closer look

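miR-679-3p in control pool 1 lay far from the other control pools, at 0.24 log2 CPM (4 reads) against 0 reads in the other control pools. This miRNA was called higher in susceptible pools (2.27, log2). The call was lost without susceptible pool 4 (2.17, log2), susceptible pool 1 or control pool 2, 3, 4 or 5. The row passed the low-count filter only with susceptible or resilient pools, which favoured a difference in this direction. Where a pool had 0 reads, its value is set by the 0.5 reads added and its depth.

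For 3 of the 37 called miRNAs the susceptible minus resilient difference was also called by limma. In that comparison 31 of 788 miRNAs (3.93%) were called. Both comparisons use the same susceptible pools, so the second call is not independent of the first. The susceptible minus resilient log2 difference was -2.95 for miR-690, -2.62 for miR-200a-3p and -3.46 for miR-7049-5p, and none passed adjustment over all miRNAs. Without susceptible pool 4, miR-200a-3p was not called (-1.38). miR-690 was below all resilient pools in all 3 susceptible pools, with 4, 0 and 0 reads. The small numbers of reads move with these results, and their part in them was not tested.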

How the results depend on the processing

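Under 11 other ways of scaling, weighting, filtering and modelling, between 27 and 51 miRNAs were called (37 as reported above), and 0 passed adjustment by limma in each. With single pools left out the number called ranged from 31 to 51. The number with an adjusted p under 0.05 ranged from 0 to 6, the 6 arising without susceptible pool 4, which these same values set apart. Of the 30 called miRNAs followed through every setting, only miR-7013-5p was called in each setting that kept it. It was left out where a mean of at least 2 log2 CPM was required. It had few reads and passed the low-count filter only with susceptible or resilient pools, so these calls are not independent support. The direction turned in 1 alternative, added after the data were seen, in which miR-34c-5p differed by 0.0602 (log2) with the ependymal sum as a covariate. For miR-144-5p in blood, values with single mice left out ranged from -0.0298 to 0.285 (log2). The comparison of pools with a replicate block on the pool number called 37 miRNAs, 24 of them shared with the fit without it. The deviations of same-numbered control and susceptible pools correlated at -0.13, 0.03 and 0.15, so the numbers were not taken to pair the pools. Quantile normalization called 16 higher and 19 lower. Low-abundance miRNAs are limited by depth, with single reads deciding their values.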
